A study of Mus musculus with 4 samples.

Results

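The 7 genes described here encode the mechanotransduction complex of the hair bundle and its tip link, the molecular machine that turns sound into current and the route by which aminoglycosides such as gentamicin pass into the hair cell. They were chosen by symbol, without a filter on their values but with earlier results of these data known. They are Tmc1, Tmc2, Tmie, Lhfpl5, Cib2, Pcdh15 and Cdh23, and they are 7 of the 23420 genes listed in the deposited tables. All 7 were also among the 16077 genes with at least 100 reads over the 12 replicates, which were the genes tested. In the cochlea before the onset of hearing, their transcripts lay mostly in the hair cell fraction. After gentamicin 1 of the 7, Cib2, was lower in hair cells by the call rule, as were 14.8% of all genes tested. That call was lost when reads were scaled by the total of each replicate and in some fits that left out 1 replicate. Cdh23 and Lhfpl5 met the same rule only when the hair cell groups were fitted without the non-hair cells. That fit called 18.2% of all genes tested lower.

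A tip link is a fine strand that joins the top of one stereocilium to the side of its taller neighbour, with cadherin 23 (Cdh23) forming its upper part and protocadherin 15 (Pcdh15) its lower part. Tension in the link opens a channel at its lower end whose pore is formed by TMC1 or TMC2, with TMIE, LHFPL5 and the calcium-binding protein CIB2 as further parts of the complex. In the cochlea Tmc2 is known as the early isoform and Tmc1 as the one that persists, and loss of most of these genes in mice impairs mechanotransduction or hearing.

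The cells came from cochleae of postnatal day 1 mice of the CD1 strain that carried the Atoh1-GFP transgene, in which an Atoh1 enhancer drives GFP in hair cells. Organs were kept overnight in culture under 5% CO2 and 5% O2 in DMEM F12 with N2 and penicillin, and were then either left untreated or exposed to 0.5 mM gentamicin for 3 h. GFP-positive cells were sorted as hair cells and GFP-negative cells as non-hair cells, which gave 4 groups (control and gentamicin-treated hair cells, control and gentamicin-treated non-hair cells) with 3 replicates each, and all 4 groups carry the transgene and the culture period. The non-hair cells are a mixture of supporting cells, the epithelial ridges and surrounding tissue. Cells with weak GFP were left outside both gates, and hair cells were sorted by the reporter alone. The paper reports high purity of the sorted hair cells, from a second sort and from staining for MyosinVI. The replicates are separate columns of each deposited table and nothing in the labels says how many animals or cultures stand behind each, so that p-values measure only the spread between these replicates.

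Each deposited value, called here the normalized read number, behaves as the number of reads on a gene scaled per replicate with 1 added. A gene without reads is then listed at 1. The methods of the paper name RPKM, but no division by length is visible. The reads on genes recovered from these values came to between 22399834 and 28151468 per replicate, with a median of 25115827. The labelled populations were checked on 8 hair cell markers (Atoh1, Pou4f3, Gfi1, Lhx3, Barhl1, Myo6, Otof and Rasd2), of which all 8 were higher in control hair cells, with log2 differences of 4.45 to 9.85. Of 8 supporting cell markers only Lfng differed between the control populations by the call rule, and it was higher in hair cells (log2 difference 1.52), while the summed level of the list was 1220 to 1492 in control hair cells and 823 to 1224 in control non-hair cells. All 7 mesenchyme markers were lower in the control hair cells.

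On the mm10 assembly, with the gene models of GENCODE M21, Tmc1 lies on chromosome 19 (20783458 to 20954202, minus strand), Tmc2 on chromosome 2 (130195194 to 130264445, plus strand) and Lhfpl5 on chromosome 17 (28575641 to 28585679, plus strand). Tmie (110865711 to 110880113) and Cib2 (54544794 to 54560218) both lie on the minus strand of chromosome 9. Both tip link genes lie on chromosome 10, Cdh23 on the minus strand (60302748 to 60696490) and Pcdh15 on the plus strand (73099342 to 74649737), and they are the longest of the set, with 75 and 47 separate exon blocks. Exons of Cib2 share 227 bases, 15.8% of its exon length, with Sh2d7 on the opposite strand, and exons of Tmie share 244 bases, 7.89%, with Als2cl on the opposite strand. Whether the counting used strand is not given in the sources used here, so in these stretches reads of the partners cannot be told apart.

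RefSeq promoters were at hand for 6 of the 7 genes, Tmc2 being the exception. They were examined because these genes were higher together in hair cells. A further reason was that Atoh1, the factor whose enhancer defined the sort, is known to bind E-boxes. Those of 5 are shown, and that of Tmie is counted below but not printed. Each run is the part of the promoter upstream of annotated exons, written 5′ to 3′ on the gene's strand, and E-boxes (CANNTG, the same letters on either strand) are in capitals. Coordinates are on GRCm38.p6, the assembly also called mm10, and are chr19:20954203-20954452 for Tmc1 (minus strand), chr17:28575469-28575640 for Lhfpl5 (plus strand), chr9:54560219-54560440 for Cib2 (minus strand), chr10:73821617-73821866 for Pcdh15 (plus strand) and chr10:60696491-60696740 for Cdh23 (minus strand).
Tmc1: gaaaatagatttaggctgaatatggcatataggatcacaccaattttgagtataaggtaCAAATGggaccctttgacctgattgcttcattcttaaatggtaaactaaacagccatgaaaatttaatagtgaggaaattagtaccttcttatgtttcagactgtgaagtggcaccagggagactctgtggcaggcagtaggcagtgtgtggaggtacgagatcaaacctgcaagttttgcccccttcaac
Lhfpl5: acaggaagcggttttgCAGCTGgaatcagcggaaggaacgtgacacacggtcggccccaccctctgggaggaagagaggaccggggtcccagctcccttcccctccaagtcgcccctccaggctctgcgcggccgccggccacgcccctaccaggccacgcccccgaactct
Cib2: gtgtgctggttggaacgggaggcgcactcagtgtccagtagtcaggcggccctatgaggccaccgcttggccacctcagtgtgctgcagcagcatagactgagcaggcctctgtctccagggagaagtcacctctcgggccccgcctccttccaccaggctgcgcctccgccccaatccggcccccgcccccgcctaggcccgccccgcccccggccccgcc
Pcdh15: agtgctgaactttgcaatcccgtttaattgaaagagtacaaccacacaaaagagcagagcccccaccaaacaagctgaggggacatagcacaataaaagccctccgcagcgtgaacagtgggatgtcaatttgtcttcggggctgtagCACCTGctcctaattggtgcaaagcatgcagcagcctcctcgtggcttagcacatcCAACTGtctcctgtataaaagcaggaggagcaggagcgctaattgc
Cdh23: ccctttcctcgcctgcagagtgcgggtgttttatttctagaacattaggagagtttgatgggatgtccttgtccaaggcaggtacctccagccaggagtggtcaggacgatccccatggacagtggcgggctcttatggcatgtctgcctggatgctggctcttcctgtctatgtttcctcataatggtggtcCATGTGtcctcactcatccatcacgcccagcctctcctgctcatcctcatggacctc

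The Pcdh15 promoter lies at the RefSeq start, inside the longer GENCODE gene. E-boxes numbered 1 in the Tmc1, Lhfpl5 and Cdh23 sequences, 2 in Pcdh15 and 0 in Cib2, and GC content ran from 41.2% in Tmc1 to 71.2% in Cib2. Over the 170 bases of each RefSeq promoter farthest upstream, an E-box was present in 4 of the 6 members (Tmc1, Tmie, Lhfpl5 and Pcdh15) and in 53.5% of all 32851 such windows. The form CAGCTG was present in Tmie and Lhfpl5 and in 8.65% of windows, and the form CAGATG on either strand in 0 members and 10.3% of windows. These letter matches were counted as a description of the sequence, and binding was not measured.

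All 7 genes were higher in control hair cells than in control non-hair cells, by 13.9-fold for Tmie to 378-fold for Lhfpl5 (values less the added 1), at a p under 0.01 and a fold change above 1.2, which 28.1% of all genes tested met in this direction. Their median log2 difference was 5.59, against -0.12 over all genes tested (-0.016 with TMM scaling). Ranked by log2 difference among the 16077 genes, Lhfpl5 was number 20, Tmc2 44, Tmc1 75, Cib2 98, Pcdh15 254, Cdh23 256 and Tmie 327. Since the sort was made on a hair cell reporter, this comparison shows in which fraction the transcripts lay. Replicates of the populations did not overlap for any of the 7, as for 34.5% of all genes tested in this direction, and each of the 7 was called in every alternative tried for this comparison.

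Tmc1, which encodes a pore subunit, had 89.0, 89.4 and 114 in control hair cells and 1.47, 1.68 and 1.59 in control non-hair cells (log2 difference 5.94, standard error 0.21, limma Benjamini-Hochberg adjusted p = 4.77e-10). Tmc2, the other pore gene, was at 219, 221 and 221 in control hair cells against 1.61, 1.51 and 1.90 in control non-hair cells (log2 difference 7.05, standard error 0.12, limma Benjamini-Hochberg adjusted p = 2.78e-12). The non-hair cell values of both genes rest on few reads, 11.4 to 17.1 per control replicate for Tmc1 and 12.9 to 23.3 for Tmc2 against 2026 to 2458 and 4783 to 5146 in control hair cells.

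Lhfpl5, a tetraspan membrane protein that holds protocadherin 15 in the complex, had 645, 638 and 630.5 in control hair cells and 1.66, 3.42 and 2.97 in control non-hair cells (log2 difference 7.96, limma Benjamini-Hochberg adjusted p = 1.01e-09). Cib2, which binds TMC1 and TMC2, had 843, 804 and 764 in control hair cells and 15.3, 16.4 and 18.6 in control non-hair cells (log2 difference 5.59, limma Benjamini-Hochberg adjusted p = 7.08e-13). Tmie, a small membrane protein needed for channel function, had 169, 160.1 and 167 in control hair cells and 14.2, 12.01 and 12.2 in control non-hair cells (log2 difference 3.69, limma Benjamini-Hochberg adjusted p = 5.62e-10). For the 3 accessory genes the populations did not overlap.

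For the tip link, Pcdh15 was at 217, 187 and 215 in control hair cells and 9.85, 11.96 and 16.5 in control non-hair cells (log2 difference 4.04, limma Benjamini-Hochberg adjusted p = 4.17e-09). Cdh23 was at 866, 819 and 776 in control hair cells and at 32.7, 53.8 and 70.7 in control non-hair cells (log2 difference 4.04, limma Benjamini-Hochberg adjusted p = 1.60e-06). The spread of Cdh23 in non-hair cells was wide, with an SD of its log2 values of 0.56 against 0.079 in control hair cells. With gentamicin the population difference was again called for 7 of 7 (higher in hair cells for 30.9% of all genes tested) and again without overlap (35.1%), with log2 differences of 4.002 for Cdh23 to 7.82 for Lhfpl5.

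**Figure D1:**
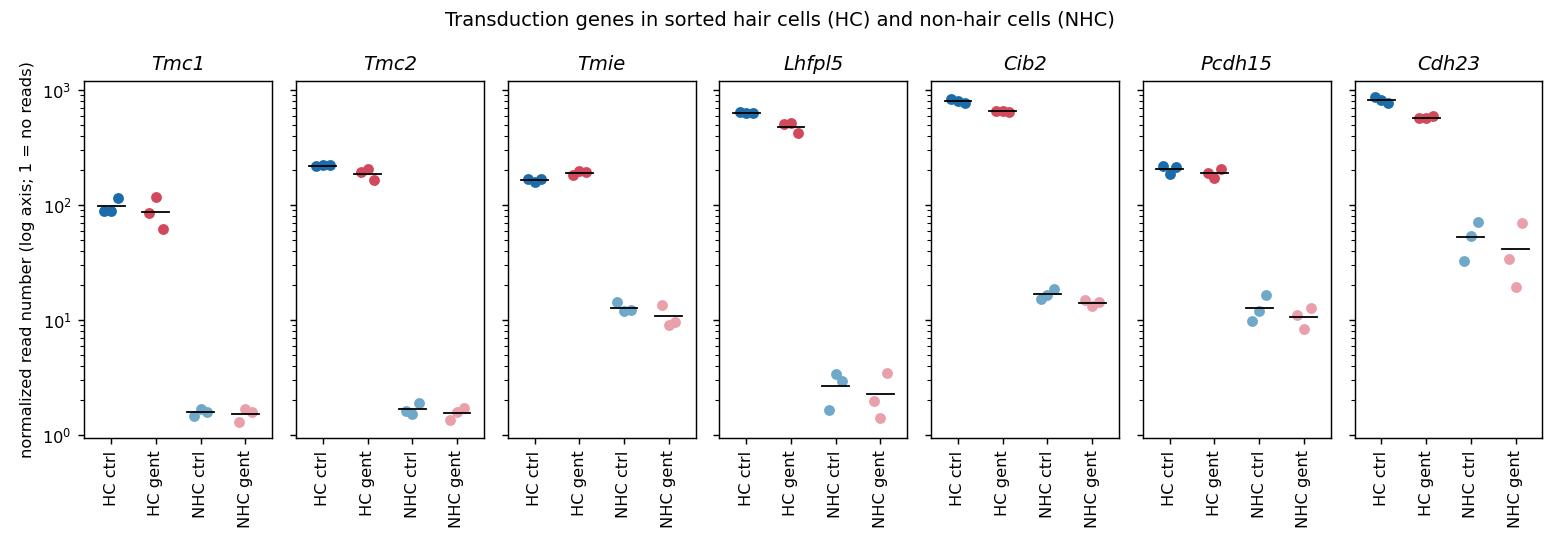
Normalized read number (log axis, where 1 means no reads) of the 7 genes in each replicate (points) with the group mean (bar), for control and gentamicin-treated hair cells (HC) and non-hair cells (NHC). In every panel all hair cell points lie above all non-hair cell points, and Cdh23 in non-hair cells runs from 19.5 to 70.7.

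The level left in non-hair cells was not the same for all 7 genes. Expressed as a share of the mean in control hair cells, control non-hair cells held 0.264% for Lhfpl5, 0.308% for Tmc2, 0.601% for Tmc1, 1.96% for Cib2, 5.73% for Pcdh15, 6.28% for Cdh23 and 7.19% for Tmie (means of 3 replicates). The same share was at a median of 0.0818%, 0.0907% and 0.0709% over the 8 hair cell markers in the control non-hair cell replicates, so all 7 members lay above it. The markers themselves ranged widely, from 0.0257% for Pou4f3 to 4.57% for Myo6, which also has known expression outside hair cells. Rasd2, at 0.464%, lay above Lhfpl5 and Tmc2, so these members were within the range of the markers even without Myo6.

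In the control means Tmie, Pcdh15 and Cdh23 lay above the highest hair cell marker. In single replicates Tmie was at 6.70% to 8.05% and above Myo6 (4.11% to 5.07%) without overlap, whereas Pcdh15 (4.31% to 7.54%) and Cdh23 (3.87% to 8.51%) overlapped with it. Which cells of the GFP-negative mixture held these reads cannot be told from bulk RNA. In the gentamicin-treated non-hair cells the shares were 0.266% for Lhfpl5, 0.293% for Tmc2, 0.604% for Tmc1, 2.01% for Cib2, 5.13% for Tmie, 5.17% for Pcdh15 and 7.002% for Cdh23, relative to gentamicin-treated hair cells. The marker median was then 0.0809%, 0.0769% and 0.214%, the last of them the highest of the 6 non-hair cell replicates. Myo6 was then at 5.49%, above Tmie and Pcdh15 and below Cdh23.

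**Figure D2:**
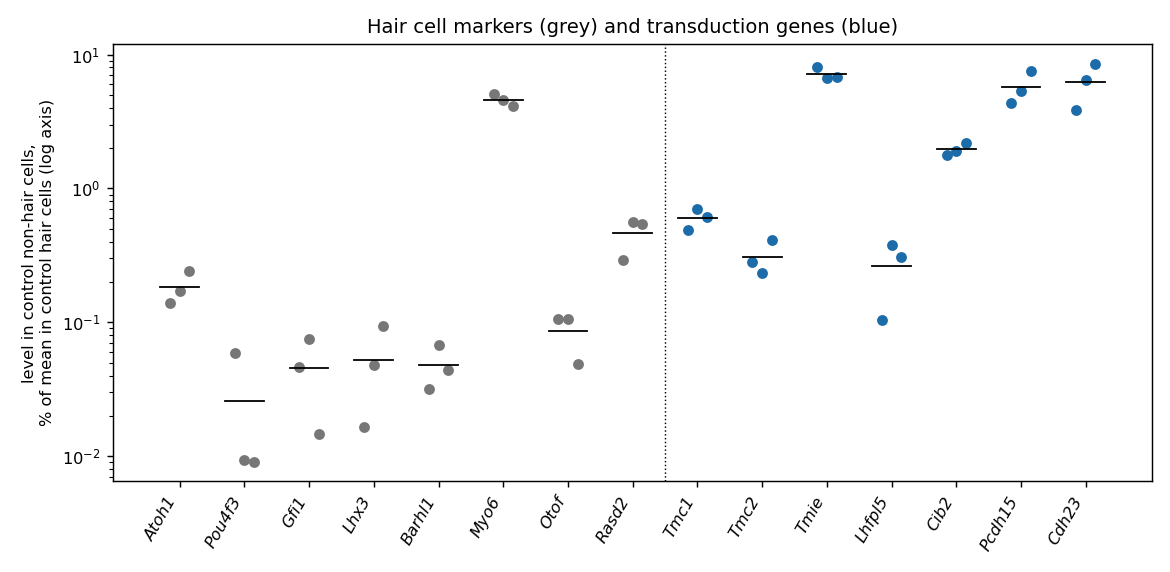
Level in control non-hair cells as a percentage of the mean level in control hair cells (log axis), for 8 hair cell markers (grey) and the 7 transduction genes (blue). Points are 3 replicates and bars their mean. Tmie, Pcdh15 and Cdh23 have means of 5.73% to 7.19%, above the 4.57% of Myo6.

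To compare the genes with each other, the normalized read number less the added 1 was divided by the length of the union of annotated exons in kilobases. In control hair cells the level per kilobase was 559.9 ± 27.4 for Cib2 (SD, n = 3), 267 ± 3.06 for Lhfpl5 (SD, n = 3), 68.2 ± 0.424 for Tmc2 (SD, n = 3), 53.1 ± 1.48 for Tmie (SD, n = 3), 48.4 ± 2.66 for Cdh23 (SD, n = 3), 13.4 ± 2.01 for Tmc1 (SD, n = 3) and 8.64 ± 0.698 for Pcdh15 (SD, n = 3). No 2 neighbours in this order overlapped between replicates. Among genes tested that have a gene model, Cib2 stood at the 99.9th percentile of level per kilobase and Pcdh15 at the 61.0th.

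The order depended on the length taken. With the longest annotated transcript in place of all exons, Cdh23 moved from the fifth place to the third (73.8 per kilobase), above Tmc2 (68.2) and Tmie (58.7), and Tmc1 (23.7) and Pcdh15 (22.6), the last in both orders, lay closer together. Cib2 and Lhfpl5 remained at the top under either length, and 4 of 7 genes kept their place. Poly(A)-selected reads also fall unevenly along transcripts as long as those of Cdh23 and Pcdh15, and the evenness of coverage was not tested.

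With gentamicin the level per kilobase of Tmie was 61.5 ± 2.92 (SD, n = 3) and that of Tmc2 was 58.1 ± 6.52 (SD, n = 3), so that their order was opposite to the control and their replicates overlapped. Tmc1 (12.1 ± 3.87, SD, n = 3) and Pcdh15 (7.89 ± 0.724, SD, n = 3) overlapped as well. In control non-hair cells the order was Cib2 (10.998), Tmie (3.82), Cdh23 (3.04), Lhfpl5 (0.704), Pcdh15 (0.495), Tmc2 (0.210) and Tmc1 (0.0807), with Tmie overlapping Cdh23 and Lhfpl5 overlapping Pcdh15.

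**Figure D3:**
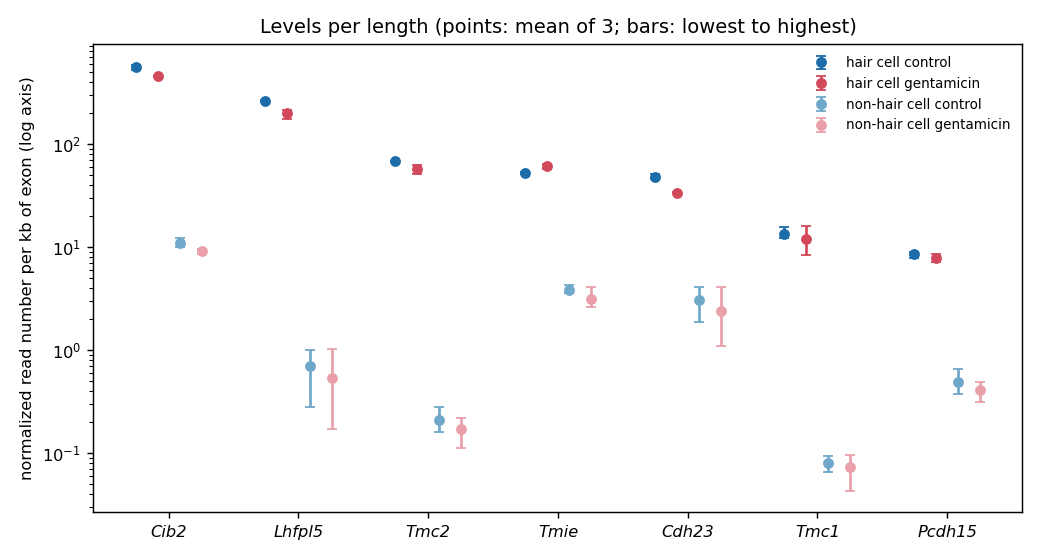
Normalized read number less 1, per kilobase of exon (log axis), for the 7 genes ordered by their level in control hair cells. Points are means of 3 replicates and bars run from the lowest to the highest replicate. Cib2 is highest in all 4 groups, while Tmc1 is lowest in both non-hair cell groups and Pcdh15 in both hair cell groups.

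Gentamicin was compared with control within hair cells to ask how the transcripts of the complex stood after the drug. By the call rule 1 of the 7 genes fell, Cib2, and 0 rose, where 27.5% of all genes tested were called, 12.7% higher and 14.8% lower. The median log2 difference of the 7 was -0.24, against -0.086 over all genes tested. In 5 of the 7 genes the treated and control replicates did not overlap, lower with gentamicin for Tmc2, Lhfpl5, Cib2 and Cdh23 and higher for Tmie, which compares with 33.1% of all genes tested without overlap in the lower direction and 21.7% in the higher. In bulk samples fewer cells of a type and less RNA per cell cannot be told apart.

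Among the pore genes, Tmc1 was at 85.1, 117 and 61.3 in the treated hair cells, against 89.0, 89.4 and 114 in the controls. The treated replicates spanned the controls on both sides, and the log2 difference was -0.19 (standard error 0.21, 95% interval -0.65 to 0.27, limma Benjamini-Hochberg adjusted p = 0.513). Without gentamicin replicate 3 in hair cells its sign turned, to 0.042. Tmc2 was at 193, 206 and 165 with gentamicin, all below the controls of 219 to 221, with a log2 difference of -0.24 (standard error 0.12, 95% interval -0.51 to 0.037, limma Benjamini-Hochberg adjusted p = 0.166).

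Cib2 was at 659.9, 664 and 646 in the treated hair cells, all below the lowest control of 764. It fell by 18.3%, a log2 difference of -0.29 (standard error 0.077, limma Benjamini-Hochberg adjusted p = 0.0144). The call was lost when reads were scaled by the total of each replicate (log2 difference -0.19, limma Benjamini-Hochberg adjusted p = 0.0823) and without hair cell control replicate 1 (-0.26, adjusted p = 0.0579). It was also lost without hair cell gentamicin replicate 3 (-0.28, adjusted p = 0.0395), where the unadjusted limma p of 0.0106 was above the limit of 0.01. Sh2d7, whose exons overlap those of Cib2 on the other strand, had means of 88.4 in control and 71.6 in treated hair cells.

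Lhfpl5 was at 505, 517 and 419.9 with gentamicin, against 630.5 to 645 in the controls. Its log2 difference of -0.41 was larger than that of Cib2 but had a standard error of 0.31 in the fit of all 4 groups (95% interval -1.09 to 0.26, limma Benjamini-Hochberg adjusted p = 0.325). Tmie was the only member with a positive log2 difference, at 181, 198 and 195 with gentamicin against 160.1 to 169 in the controls. That difference was 0.21 (standard error 0.13, 95% interval -0.081 to 0.50, limma Benjamini-Hochberg adjusted p = 0.246), under the 1.2-fold limit.

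The tip link genes differed from each other in size of change. Cdh23 was at 567, 568 and 590.1 with gentamicin, well below the controls of 776 to 866, and its log2 difference of -0.51 was the largest in size among the 7 (standard error 0.38, 95% interval -1.34 to 0.32, limma Benjamini-Hochberg adjusted p = 0.326). Pcdh15 was at 188, 172 and 206 with gentamicin, overlapping the controls of 187 to 217, and its log2 difference was -0.13 (standard error 0.19, 95% interval -0.54 to 0.28, limma Benjamini-Hochberg adjusted p = 0.625).

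The fit of all 4 groups uses 1 estimate of spread per gene, and for Lhfpl5 and Cdh23 that spread came mainly from the non-hair cells. The SD of the log2 values of Cdh23 was 0.079 and 0.032 in control and treated hair cells and 0.56 and 0.93 in control and treated non-hair cells, and that of Lhfpl5 was 0.017, 0.16, 0.55 and 0.66 in the same order. With the hair cell groups fitted alone, 3 of the 7 genes were called, all lower, where that fit called 18.2% of all genes tested lower. These were Cdh23 (standard error 0.077, limma Benjamini-Hochberg adjusted p = 0.00255), Lhfpl5 (standard error 0.093, limma Benjamini-Hochberg adjusted p = 0.0112) and Cib2 (standard error 0.076, limma Benjamini-Hochberg adjusted p = 0.0195), with log2 differences as above. In that fit Tmie had an adjusted p of 0.0249 with a fold change under 1.2, Tmc2 an adjusted p of 0.0558, Pcdh15 0.268 and Tmc1 0.504 (limma, Benjamini-Hochberg). That fit called 5061 genes in all, against 4418 with all 4 groups.

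**Figure D4:**
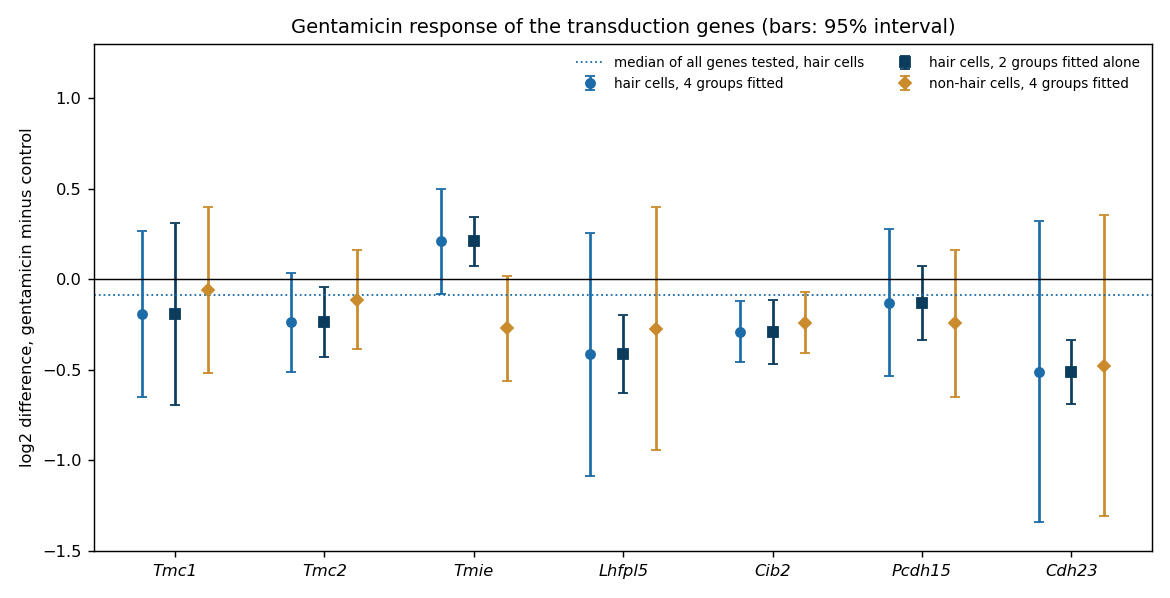
Log2 difference between gentamicin-treated and control replicates for the 7 genes, in hair cells with all 4 groups fitted (circles), in hair cells with the hair cell groups fitted alone (squares) and in non-hair cells (diamonds). Bars are 95% intervals and the dotted line is the median of all genes tested in hair cells (-0.086). For Tmc2, Tmie, Lhfpl5 and Cdh23 the hair cell interval excludes 0 only when the hair cell groups are fitted alone.

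Markers of other cell types moved between the hair cell groups as well. Of all genes tested 14.8% were called lower in this comparison, and 33.1% were lower without overlap of replicates. The summed level of the 8 supporting cell markers was 1220 to 1492 in control and 581 to 1070 in treated hair cells, with 3 of 8 called lower (Hes5, Lfng and Gjb2) and 0 at zero reads. The 7 mesenchyme markers summed to 247 to 530 in control and 169 to 213 in treated hair cells with 3 called lower, the 4 endothelial markers to 11.3 to 21.1 and 5.19 to 9.96 with 1 called lower, and the 4 glial markers to 165 to 207 and 76.9 to 139 with 2 called lower. Macrophage markers (4 genes, 0.738 to 1.54 and 0.990 to 2.32) overlapped between the groups, with 0 called. The 5 neuronal markers summed to 968 to 1161 in control and 914 to 1071 in treated hair cells with 0 called, but 4 of the 5 were lower without overlap of replicates and their median log2 difference was -0.83 (lowest limma Benjamini-Hochberg adjusted p = 0.0423). Of the 8 hair cell markers 0 were called and their median log2 difference was -0.019, although their summed level was 11614 to 12012 in control and 9999 to 11209 in treated hair cells. The part of these shifts in the values of the 7 genes was not tested.

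In non-hair cells gentamicin gave 0 calls among the 7 genes by limma, where 5.44% of all genes tested were called, and all 7 log2 differences were negative, from -0.058 for Tmc1 to -0.48 for Cdh23. Cib2 was at 14.8, 13.2 and 14.5 with gentamicin against 15.3 to 18.6 in the controls and was the only member whose replicates did not overlap (7.68% of all genes tested did not overlap in this direction). Its log2 difference was -0.24 with a 95% interval of -0.41 to -0.070. At an unadjusted p of 0.00968 it was the only member under 0.05 (limma Benjamini-Hochberg adjusted p = 0.164), and its fold change was under 1.2. Cdh23 was at 33.8, 19.5 and 70.3 with gentamicin, which overlapped the controls of 32.7 to 70.7. Leaving out 1 replicate gave 1 call in 3 cases, Cib2 without control replicate 1 (-0.30), Tmie without gentamicin replicate 1 (-0.45) and Cdh23 without gentamicin replicate 3 (-0.96).

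The test of the difference between the responses of hair cells and non-hair cells called 0 of the 7 genes at a Benjamini-Hochberg adjusted p under 0.05 in limma, where 13.4% of all genes tested were called. Tmie was the only member with an unadjusted p under 0.05 (0.0261). Its log2 difference was 0.21 in hair cells and -0.27 in non-hair cells, so that the responses differed by 0.48 (standard error 0.19, 95% interval 0.068 to 0.89, limma Benjamini-Hochberg adjusted p = 0.111). Without non-hair cell gentamicin replicate 1 this difference was 0.66 with an adjusted p of 0.0130, which met the rule. For the other 6 the difference ran from -0.14 for Lhfpl5 to 0.11 for Pcdh15, and its 95% interval was widest for Cdh23 (-1.21 to 1.14) and narrowest for Cib2 (-0.29 to 0.19).

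Proportions between parts of the complex were taken per replicate from the levels per kilobase in hair cells. Tmc2 exceeded Tmc1 by 5.15 ± 0.693 times (SD, n = 3) in controls and 5.04 ± 1.06 times (SD, n = 3) with gentamicin (exact permutation test, two-sided p = 0.8, adjusted 0.8), or by 2.92 and 2.86 times with the longest transcript of each gene. The ratio of Cdh23 to Pcdh15, the upper to the lower part of the tip link, was 5.62 ± 0.539 (SD, n = 3) in controls and 4.31 ± 0.322 (SD, n = 3) with gentamicin, without overlap. The ratio of Tmie to Lhfpl5 was 0.199 ± 0.00573 (SD, n = 3) and 0.309 ± 0.0424 (SD, n = 3), also without overlap.

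The ratio of Cib2 to Tmie was 10.5 ± 0.559 (SD, n = 3) in controls and 7.45 ± 0.393 (SD, n = 3) with gentamicin, again without overlap. For these 3 ratios the exact permutation test gave a two-sided p of 0.1 (0.167 after Benjamini-Hochberg adjustment over the 5 ratios). That is the smallest p that 3 replicates against 3 allow, so this test cannot reach 0.05. For Tmie to Lhfpl5 and Cib2 to Tmie, the lack of overlap and this p were already fixed by the single genes. Every treated replicate of Tmie lay above its controls, and every treated replicate of Lhfpl5 and Cib2 below theirs. Lhfpl5 to Pcdh15 was 31.0 ± 2.62 (SD, n = 3) and 25.8 ± 4.98 (SD, n = 3), with p = 0.3 in the exact permutation test (adjusted 0.375). The 5 ratios share genes, and none depends on the scaling between replicates except through the added 1, which had been taken off.

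**Figure D5:**
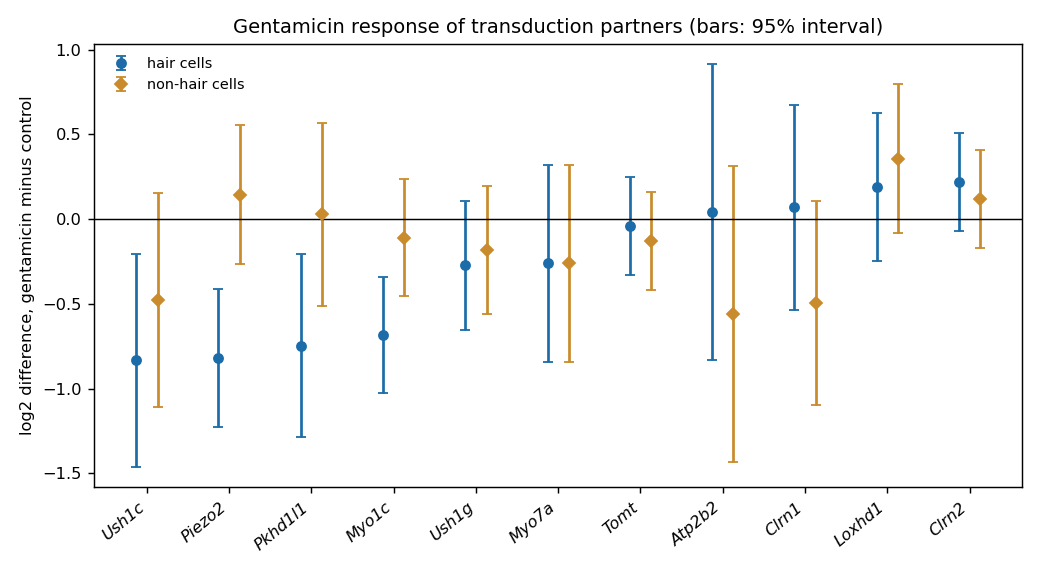
Log2 difference between gentamicin-treated and control replicates for the 11 tested transduction partners, in hair cells (circles) and non-hair cells (diamonds), all 4 groups fitted, with 95% intervals. The intervals of Ush1c, Piezo2, Pkhd1l1 and Myo1c exclude 0 in hair cells, and none of those in non-hair cells does.

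A list of 12 genes known to work with the complex in the hair bundle was examined alongside it, of which 11 were tested and Cib3 had too few reads. In control cells 10 were higher in hair cells, as were 28.1% of all genes tested, and 1, Myo1c, was lower. With gentamicin 2 of the 11 fell in hair cells, 0 rose and 9 were not called, where 14.8% of all genes tested were called lower. The median log2 difference of the 11 was -0.26, against -0.086 over all genes tested. At a Benjamini-Hochberg adjusted p under 0.05 with no fold limit, which 33.2% of all genes tested met, 4 of the 11 passed, all lower.

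Piezo2, which encodes a stretch-activated channel found at the apical surface of hair cells, was at 187, 169 and 161 in control and at 92.2, 81.4 and 123 in treated hair cells. It fell by 0.82 on the log2 scale (standard error 0.19, limma Benjamini-Hochberg adjusted p = 0.00676), and its responses in the populations differed by -0.96 (limma Benjamini-Hochberg adjusted p = 0.0346), a call that held in 3 of the 12 fits that left out 1 replicate. Myo1c, a myosin proposed in adaptation of the transduction current, was at 8.98, 14.2 and 9.33 in control and 6.85, 5.74 and 7.31 in treated hair cells, and fell by 0.68 (limma Benjamini-Hochberg adjusted p = 0.00714), with an unadjusted p just over 0.01 when the hair cell groups were fitted alone. Its level in control non-hair cells was 75.6 to 81.6, so that its mean in control hair cells was 0.128 of that in non-hair cells (values less the added 1). Some supporting cell, mesenchyme, endothelial and glial markers were also called lower in treated hair cells, and no macrophage or neuronal marker was. The part of these shifts in the Myo1c value was not tested.

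Ush1c, which encodes the scaffold harmonin at the upper tip link density, was at 276, 283 and 295 in control and 193, 163 and 129 in treated hair cells, a log2 difference of -0.83 (standard error 0.29, limma Benjamini-Hochberg adjusted p = 0.0441) that missed the unadjusted limit of 0.01. Pkhd1l1, a stereocilia coat protein, was at 1463, 1564 and 1547 in control and 886, 1059 and 797 in treated hair cells, a log2 difference of -0.75 (limma Benjamini-Hochberg adjusted p = 0.0371), and it also missed the unadjusted limit. In both genes every treated replicate lay below every control, and both met the call rule when the hair cell groups were fitted alone (limma Benjamini-Hochberg adjusted p = 0.00309 and 0.00352).

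Tomt, which is needed to bring TMC proteins to the bundle, was at 264, 245 and 268 in control and 245, 256 and 254 in treated hair cells (log2 difference -0.041, 95% interval -0.33 to 0.25, limma Benjamini-Hochberg adjusted p = 0.840). The remaining tested partners had log2 differences of -0.27 for Ush1g and -0.26 for Myo7a, the other scaffold and motor of the upper tip link density, 0.041 for the calcium pump gene Atp2b2, 0.069 for Clrn1, 0.19 for Loxhd1 and 0.22 for Clrn2, and none was called.

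Relatives outside the complex were also compared between the sorted populations. In control hair cells 28.1% of all genes tested were called higher, and 6062 of the 16077 were called lower. Of the 6 genes Tmc3 to Tmc8, 0 were higher in control hair cells, 3 were lower (Tmc3, Tmc6 and Tmc8) and 3 were not called. Lhfpl4 was higher in hair cells (log2 difference 2.86), Lhfp, Lhfpl2 and Lhfpl3 were lower, and Lhfpl1 was not called. Cib1 was higher by 0.91 on the log2 scale, and Cib3 and Cib4 had too few reads to be tested. With gentamicin 1 of the 6 TMC relatives and 1 of the 5 LHFPL relatives fell in hair cells, where 14.8% of all genes tested were called lower. Tmc7 went from 16.98, 17.8 and 17.5 to 12.7, 7.82 and 11.7 (log2 difference -0.73, limma Benjamini-Hochberg adjusted p = 0.0154). Lhfpl2 went from 39.4, 46.2 and 42.1 to 22.5, 18.1 and 30.4 (log2 difference -0.88, limma Benjamini-Hochberg adjusted p = 0.00609). The Tmc7 call held in 3 of the 6 fits that left out 1 hair cell replicate.

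Over the 12 replicates the log2 values of the 7 genes correlated with each other at r = 0.963 to 0.999 in 21 pairs. These correlations describe the gap between the populations, which all pairs share, and say little about variation within either. The 5 other genes with the most similar profile to the mean of the 7 were Dytn, Mllt4, Nrxn3, Tomt and Acbd7, with r of 0.999 each. Single members were most like Gm14635 (Tmc1), Grp (Tmc2), Ttc34 (Tmie), Insm1 (Lhfpl5), Sh2d7 (Cib2), Paqr9 (Pcdh15) and Rab15 (Cdh23), and Sh2d7 is the gene whose exons overlap Cib2. Grp, which encodes gastrin-releasing peptide, had means of 184 and 157 in control and treated hair cells and 1.502 and 1.33 in control and treated non-hair cells, against 220.5, 188, 1.68 and 1.55 for Tmc2.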

How the data were processed

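Poly(A) RNA was sequenced in 4 groups of 3 replicates. The authors trimmed 50-base single-end reads, aligned them to mm10 with TopHat 2 (versions from the submitters' processing notes) in PartekFlow and normalized them per gene. The deposited values were handled as a score: they behave as scaled read numbers with 1 added, although the methods name RPKM, since no division by length is visible. The gene annotation, strand use and scaling factor are not given in the sources used here.

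Reads were recovered by dividing the values, less 1, by the step of each replicate. Of low values (up to 20 reads) 82.9% to 83.9% were whole within 0.1 read, which was too few for a count model. Log2 values of genes with at least 100 reads over the 12 replicates went into 1 limma model (version 3.58.1, R 4.3.3) of all 4 groups with a variance trend. Calls required a p under 0.01 before adjustment and more than a 1.2-fold change (adjusted p under 0.05 for the difference of responses). All limma tests were two-sided, with Benjamini-Hochberg adjustment over 16077 genes, and log2 differences carry the added 1, which understates changes of low genes. Tables were handled with Python 3.11.15, pandas 2.3.3 and numpy 2.4.6. Gene models were those of GENCODE M21, matched by symbol for 15037 of the 16077 genes, and promoters those of RefSeq. The procedure was tested on simulated data.

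The text names all 7 members, any of the 12 partners and of the TMC, LHFPL and CIB relatives (each list counted whole), and the genes most correlated with the members. Members and lists were chosen with earlier results of these data known. Replicates were grouped by the number in each column header. Alternatives were TMM and total-read scaling, an offset of 0.1, a minimum of 1000 reads or none, voom weights, a replicate block, adjusted p alone, fits of only the compared groups, leaving out each replicate and the longest transcript. Scaling by hair cell markers, in a fit of the hair cell groups alone, was chosen after the data were seen.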

Additional observations from a re-analysis of the deposited data

Results flagged for a closer look

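By the test of the difference itself in limma, the gentamicin responses of hair cells and non-hair cells differed for 3 relatives or partners of the complex. None of its 7 members was called. The 3 were 1 of 11 tested partners and 2 of 5 LHFPL relatives, with 0 of 6 TMC relatives and not Cib1. Of all genes tested 13.4% were called in this test, and the share called among all tested partners and relatives was no higher. Piezo2 differed by -0.96 on the log2 scale (Benjamini-Hochberg adjusted p = 0.0346), with -0.82 in hair cells and 0.14 in non-hair cells. Lhfp differed by -0.96 (Benjamini-Hochberg adjusted p = 0.0394), with -0.48 and 0.47, and neither of those was called on its own. Lhfpl2 differed by -0.95 (Benjamini-Hochberg adjusted p = 0.0435), with -0.88 and 0.073. Lhfp and Lhfpl2 were at 0.147 and 0.289 of their non-hair cell level in control hair cells. The 7 mesenchyme markers had a median log2 difference with gentamicin of -0.69 in hair cells. There 3 of 7 were called lower, as were 14.8% of all genes tested. In non-hair cells their median was 0.15 (0 called), and their median difference of responses was -1.16 (1 of 7 called). The part of this in these differences was not tested. Each of the 3 kept its call in 3 of the 12 fits that left out 1 replicate, with adjusted p-values between 0.0143 and 0.0999, and its sign in all 12. With the replicate number as a block, Lhfp (adjusted p = 0.0510) and Lhfpl2 (0.0615) were no longer called in limma. Without a minimum of reads all 3 calls were lost, with voom weights those of Lhfp and Lhfpl2, and with TMM or total-read scaling that of Lhfpl2. With 3 replicates per group, no single replicate was tested for standing apart.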

How the results depend on the processing

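All 7 members were called higher in hair cells in every alternative. For gentamicin in hair cells the number of members called was 0 with total-read scaling, 3 with the hair cell groups fitted alone, 3 with scaling by hair cell markers (also fitted on the hair cell groups alone, so the scaling is not told apart from the choice of samples) and 0 to 1 with a replicate left out, against 1 as reported, and 4 partners instead of 2 passed at an adjusted p under 0.05 alone. In non-hair cells 55 genes passed at that threshold, 383 with the compared groups alone and 411 to 1570 with a replicate left out, against 875, with 0 to 1 members and 0 to 4 partners called. The difference of responses called 1163 to 2378 genes with a replicate left out, against 2158, with 0 to 1 members and 0 to 1 partners, and 0 partners without a minimum of reads. Total-read scaling called 2774 genes higher and 1591 lower in hair cells (63.6% higher, against 46.1% from 2037 and 2381), 633 and 282 in non-hair cells (69.2% against 58.5%), and 67.7% against 51.1% higher for the difference of responses. Non-hair cell calls were 44.4% higher without control replicate 1 and 46.6% without gentamicin replicate 3. With the longest transcript 4 of 7 members kept their place in level per kilobase. Signs turned for differences near 0. Tomt came to 0.056 with total-read scaling. With a hair cell replicate left out, Atp2b2 ran from -0.036 (without gentamicin replicate 2) to 0.15 and Tmc1 from -0.42 to 0.042 (without gentamicin replicate 3). In non-hair cells Tmc1 ran from -0.14 to 0.047 (without gentamicin replicate 1) and Lhfpl5 from -0.63 to 0.025 (without gentamicin replicate 2). Between the control populations Lhfpl1 ran from -0.20 to 0.039, above 0 without hair cell replicate 1 or 2 or non-hair cell replicate 3. The cause was not tested. A replicate block called 4618, 878 and 2306 genes for hair cells, non-hair cells and the difference of responses, and changed no call of a member, while Lhfp and Lhfpl2 lost theirs for the difference of responses. Same-numbered replicates correlated in their deviations at 0.037 to 0.052 between the hair cell groups and -0.23 to 0.68 between the non-hair cell groups, so there the numbers did not pair them. Between the control populations all 3 pairs were over 0.1 (0.20 to 0.32), which meets the rule for pairing, and the block gave 10669 calls against 10581. Between the treated populations they were -0.039 to 0.38. Tmc1, Tmc2 and Lhfpl5 in non-hair cells rest on 8.01 to 70.0 reads per replicate, which limits what can be said of their response there.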
